A study of Homo sapiens with 4 samples.

Results

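The S100 proteins and annexins described here are 10 genes, S100A4, S100A6, S100A10, S100A11, S100A14, S100A16, S100P, ANXA1, ANXA2 and ANXA5. They were taken from the gene table by symbol, each with 1 row, out of 64962 genes, of which 18666 loci had at least 1 fragment in any library. RNA-seq had been made from HT-29, a human colorectal cancer cell line, and from NCM460, a human colorectal cell line that stood as the comparison line. Each line was sequenced as an untreated control and after 24 h with 100 μg/mL SCS, sturgeon chondroitin sulfate, a sulfated glycosaminoglycan. This gave 4 libraries, a control and an SCS library of HT-29 and then of NCM460, which is the order of values throughout, with 1 library per condition. The design asks how the lines differ with and without SCS and what SCS does in each of them. There was no replicate in any condition, so a pairwise difference below compares libraries, and its interval covers counting error only.

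S100 proteins are small calcium sensors that change shape on binding calcium and then dock on target proteins, and several are released by epithelial cells. Annexins bind negatively charged membrane lipids when calcium is present and take part in membrane repair, vesicle traffic and the handling of dying cells. The families meet in fixed pairs: S100A10 binds ANXA2, S100A11 binds ANXA1, and S100A6 can bind ANXA2.

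The S100 members sit mainly on chromosome 1. On GRCh38, which the coordinates of the table match, S100A10 lies at chr1:151982915-151994390, S100A11 at chr1:152032506-152047907, S100A6 at chr1:153534599-153536244, S100A4 at chr1:153543613-153550136, S100A16 at chr1:153606886-153613145 and S100A14 at chr1:153614255-153616986, all on the minus strand. S100P stands apart at chr4:6693069-6697170 on the plus strand. ANXA1 lies at chr9:73151757-73170393 on the plus strand, ANXA2 at chr15:60347134-60402883 and ANXA5 at chr4:121667955-121697113, both on the minus strand. All 10 are protein-coding genes, values are sums over the whole gene, and none shared its values with another gene of the table. No other gene of the table that overlaps a member held more than 3 fragments in a library. The library kit named in the labels does not mark strand, so reads of overlapping genes cannot be told apart.

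Upstream sequences are shown for S100P, S100A4, ANXA1 and S100A14, because S100P set the lines apart, S100A4 and ANXA1 had the largest log2 change with SCS in HT-29 and in NCM460, and S100A14 was the member lower in HT-29 without SCS. Each is the 250 bases before the RefSeq start site on GRCh38.p14, read 5′ to 3′ on the strand of the gene. The windows are chr4:6693628-6693877 (plus) for S100P, chr1:153545807-153546056 (minus) for S100A4, chr9:73151615-73151864 (plus) for ANXA1 and chr1:153616326-153616575 (minus) for S100A14. Capitals mark matches to TATAAA and CCAAT on either strand.
S100P: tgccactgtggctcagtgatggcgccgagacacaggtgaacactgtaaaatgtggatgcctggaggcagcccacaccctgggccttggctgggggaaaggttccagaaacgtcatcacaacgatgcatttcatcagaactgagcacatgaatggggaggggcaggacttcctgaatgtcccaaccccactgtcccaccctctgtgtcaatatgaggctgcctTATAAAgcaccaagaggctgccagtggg
S100A4: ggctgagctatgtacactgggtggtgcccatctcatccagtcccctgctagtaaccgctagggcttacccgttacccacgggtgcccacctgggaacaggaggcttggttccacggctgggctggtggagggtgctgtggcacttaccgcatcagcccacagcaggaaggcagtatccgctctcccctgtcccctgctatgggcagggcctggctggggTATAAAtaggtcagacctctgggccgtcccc
ANXA1: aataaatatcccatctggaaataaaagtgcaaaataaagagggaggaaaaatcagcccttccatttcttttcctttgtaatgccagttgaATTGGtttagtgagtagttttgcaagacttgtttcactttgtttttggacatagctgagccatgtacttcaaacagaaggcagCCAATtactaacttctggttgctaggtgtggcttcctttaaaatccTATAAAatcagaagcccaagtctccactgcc
S100A14: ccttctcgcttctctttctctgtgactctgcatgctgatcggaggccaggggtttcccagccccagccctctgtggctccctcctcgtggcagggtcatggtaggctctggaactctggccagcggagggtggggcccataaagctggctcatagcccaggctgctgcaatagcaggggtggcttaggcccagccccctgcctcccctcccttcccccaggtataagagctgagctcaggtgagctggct

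The TATAAA match began 28 bases before the start site in S100P and 31 bases before it in S100A4, ANXA1 and ANXA2. These 4 of the 10 members held TATAAA in windows reaching from 250 bases before to 50 bases after the start, against 11.5% of 35116 RefSeq windows of the same length. GGGCGG was found in 6 members (S100A6, S100A10, S100A11, S100A16, ANXA2 and ANXA5) and in 45.0% of all windows. CCAAT was found in S100A16 and ANXA1 and in 34.6% of all windows, and TGANTCA in ANXA2 and in 7.71%. A member was counted if any of its windows held the motif, while the shares are per window. S100A16 had more than 1 window, and its matches lay only in the window with the start site at chr1:153609355. Both strands were searched, the letters of these motifs did not overlap in the sequences shown, and a match describes letters, not a bound factor. The ANXA1 window had the lowest G and C content of the members at 37.7%, beside a median of 58.7% over all windows, and the ANXA5 window the highest at 76.3%.

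The libraries differed in ways that touch these genes. They held 1156605 to 1654801 fragments, of which 13.8% to 62.3% were from the mitochondrial genome, the most in the NCM460 control, so that nuclear fragments ran from 507711 in the NCM460 control to 1383486 in HT-29 with SCS. Across 7254 loci at a mean of 10 CPM (fragments scaled to a common library size) or more, the log2 difference between the lines without SCS followed the GC content of transcripts (Spearman rho -0.62, a description across loci). For SCS over control in NCM460 it was -0.75 over 7073 loci, while it was -0.20 between the lines under SCS and -0.18 for SCS in HT-29, so the NCM460 control stood apart. Values with this trend subtracted, called GC-subtracted, are therefore given beside the results that rest on that library. Of 15 colon epithelium markers, KRT8, KRT18, KRT19, EPCAM and CDH1 were present in all libraries, TFF3, GPA33 and CDX1 were listed at 0 in all 4, and KRT20, VIL1, LGALS4, CEACAM5 and CEACAM6 were listed at 0 in both NCM460 libraries. Over the floor of 3 fragments, 9 of the 15 were present in each HT-29 library and 6 in each NCM460 library, with summed levels of 3577 to 6524 CPM and 2660 to 4346 CPM. CDX2 went the other way, with 0 fragments in both HT-29 libraries and 14 and 12 in NCM460, and KRT19 was 4.68-fold lower in HT-29 without SCS. The summed level of 12 mesenchymal markers was 9.77 and 14.2 CPM in HT-29 and 140 and 143 CPM in NCM460, most of it SPARC, and VIM had at most 7 fragments. Of the leukocyte markers, PTPRC, CD3E and CD14 were listed at 0 in all libraries, ITGAM had 8 and 4 fragments in HT-29, and LYZ, lysozyme, which epithelium also makes, had 603 and 352 fragments in HT-29, and both were listed at 0 in NCM460. In bulk RNA, fewer cells of a kind and less RNA per cell cannot be told apart.

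Together the 10 genes took 0.328% of nuclear fragments in the HT-29 control (95% Clopper-Pearson interval 0.317% to 0.339%) and 0.244% under SCS (0.236% to 0.253%). In NCM460 they took 0.175% without SCS (0.164% to 0.187%) and 0.187% under it (0.177% to 0.198%). The share was thus highest in the HT-29 control, and the NCM460 intervals overlapped each other. S100 genes made up 61.1%, 63.8%, 63.9% and 53.6% of the members' fragments in the same order, so the annexin part was largest in NCM460 with SCS.

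**Figure D1:**
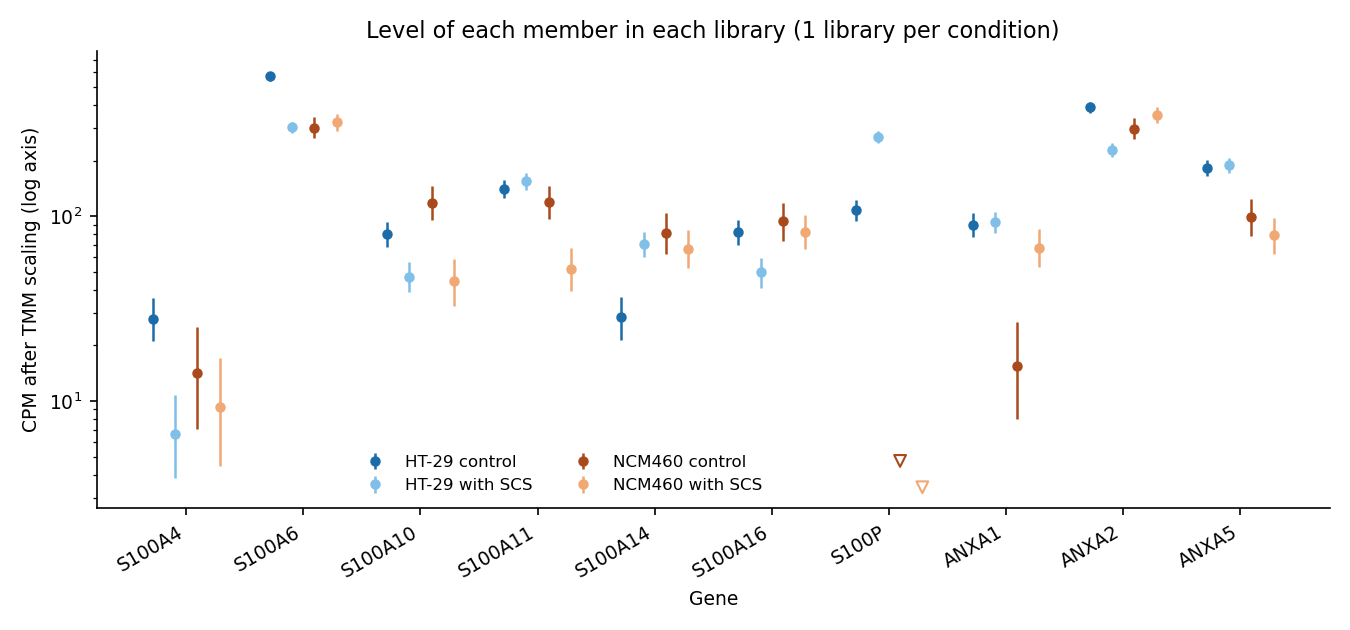
Level of the 10 genes in the 4 libraries, as CPM after TMM scaling on a log axis. Points are single libraries and bars are 95% Poisson counting intervals; open triangles mark the upper limits of S100P (4.74 and 3.41 CPM) in the NCM460 libraries, where it had 0 fragments.

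Levels of different genes were compared per length, by the deposited FPKM (fragments scaled to transcript length and library size), within each library. S100A6, calcyclin, a calcium sensor of proliferating epithelium and fibroblasts, was the highest member in every library, at 1044, 470, 566 and 522 FPKM. ANXA2 followed in 3 libraries, at 234 FPKM in the HT-29 control, 277 FPKM in the NCM460 control and 221 FPKM in its SCS library. In HT-29 with SCS, S100P took the place below S100A6 at 340 FPKM, and S100A11 at 247 FPKM and ANXA2 at 114 FPKM came after it. With fragments divided instead by reference transcript length and nuclear fragments, S100A6 was again highest in all 4 libraries, but S100A11 (451) stood above S100P (365) in HT-29 with SCS and above ANXA2 in both controls (457 against 448, and 308 against 273), so the places below S100A6 depend on the length used.

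Neighbours in this order often could not be separated by counting error. In the HT-29 control, ANXA2 at 234 and S100A11 at 229 FPKM had overlapping intervals, as did S100A10, ANXA5 and S100A16 between 88.4 and 101 FPKM. The lowest member there was S100A14 at 24.2 FPKM. In HT-29 with SCS, S100A14, S100A16, S100A10 and ANXA1 formed a run of overlapping neighbours from 42.0 to 57.5 FPKM, and S100A4 was lowest at 10.8 FPKM. In the NCM460 control, S100A4 at 30.3 and ANXA1 at 15.4 FPKM overlapped at the low end above S100P, which was listed at 0. In NCM460 with SCS, the neighbours from S100A16 at 95.8 FPKM down to ANXA1 at 41.5 FPKM overlapped one after another, and S100A4 stood below them at 17.3 FPKM.

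The first comparison was between the lines without SCS. A gene was called when it differed by more than 1.5-fold between libraries after TMM scaling and its 95% counting interval excluded no change. HT-29 held more S100P, ANXA1, S100A6, S100A4 and ANXA5 than NCM460, and less S100A14, whereas S100A10, S100A11, S100A16 and ANXA2 were not called. Thus 5 of the 10 members were called higher in HT-29, beside 25.3% of the 12699 loci tested, and 1 lower, beside 23.1%. The members' median log2 fold change was 0.63 and that of all loci 0.09. With the GC trend subtracted the members' median was 0.54, with 5 called higher, beside 18.5% of loci, and 1 lower, beside 19.0%, but S100A11 had replaced ANXA5 among those called higher.

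S100P, a small S100 protein of the placenta and of gut, pancreatic and breast tumours, was the member that separated the lines most plainly. It had 220 fragments in the HT-29 control and 645 in HT-29 with SCS, or 107 and 269 CPM, and it was listed at 0 in both NCM460 libraries. Set against the floor of 3 fragments in an NCM460 library, its level in HT-29 was at least 27.9-fold higher without SCS and at least 96.8-fold higher under SCS. These bounds take the HT-29 level as it stands. The counting intervals, which also hold the error of the HT-29 fragments and a wider limit for 0 fragments, began lower, at log2 values of 4.49 and 6.29. In a fit of the line difference over both treatments, with 2 libraries a line, S100P was the member that passed. Its Benjamini-Hochberg adjusted p was 2.73e-14 by edgeR's quasi-likelihood test. The log2 value was 11.27 ± 1.35 SE, which depends on the prior count since NCM460 was at 0. S100P entered this fit through its HT-29 fragments alone and had no spread of its own in NCM460, so this p adds no support to the counts. Beside edgeR values throughout, SE is the log2 value over the square root of the test's F statistic, not a fitted error. DESeq2's Wald test gave the same direction at an adjusted p of 0.145 (log2 9.62 ± 4.21 SE).

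ANXA1, the glucocorticoid-induced annexin that acts on formyl peptide receptors in the resolution of inflammation, was next. It had 184 fragments in the HT-29 control and 222 in HT-29 with SCS, but 12 and 73 in those of NCM460. The NCM460 control was thus far below the other 3 libraries, at 15.4 CPM against 67.5 to 92.5 CPM. Without SCS it was 5.43-fold higher in HT-29 (log2 fold change 2.44, interval 1.70 to 3.52), and 1.14 on the log2 scale when GC-subtracted. ANXA1 transcripts are poor in G and C, at 39.3% of the transcript.

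S100A6 had 1172 and 726 fragments in HT-29 without and with SCS, and 235 and 348 in NCM460. At 572 CPM, the HT-29 control stood above the other 3 libraries, which lay between 302 and 322 CPM. Without SCS the gene was 1.89-fold higher in HT-29 (log2 fold change 0.92, interval 0.72 to 1.13, GC-subtracted 1.72). S100A4, a promoter of cell motility also known as metastasin, was rare, with 57, 16, 11 and 10 fragments in the same order. Its difference between the lines without SCS, 0.91 on the log2 scale, had an interval from 0.03 to 2.06, and it was not called under DESeq2 size factors, the scaling of the authors or with the expression trend subtracted.

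ANXA5, which binds phosphatidylserine and is used to stain dying cells, had 374, 453, 77 and 85 fragments. Both HT-29 libraries, at 183 and 189 CPM, lay above both NCM460 libraries, at 98.9 and 78.6 CPM. Without SCS it was 1.84-fold higher in HT-29 (log2 fold change 0.88, interval 0.53 to 1.26), but with the GC trend subtracted its log2 value of 0.46 was no longer called.

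S100A14, an epithelial S100 protein whose partner is S100A16, went the other way without SCS. It had 58 and 169 fragments in HT-29 without and with SCS, and 63 and 72 in NCM460. The HT-29 control, at 28.3 CPM, was the low library, and the other 3 lay between 66.6 and 80.9 CPM. It was 2.77-fold lower in HT-29 without SCS (log2 fold change -1.47, interval -2.05 to -0.98, GC-subtracted -1.11).

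The 4 members not called without SCS had log2 values between -0.55 and 0.38. S100A10, which holds ANXA2 in a complex at the cell membrane, had 164 fragments in the HT-29 control and 92 in the NCM460 control, a log2 value of -0.55 (interval -0.94 to -0.18) that was -0.05 when GC-subtracted. ANXA2, the main membrane annexin of epithelium, had 797 and 232 fragments, a log2 value of 0.38 (interval 0.17 to 0.60) that was 0.00 when GC-subtracted. For S100A11 the log2 value was 0.23 (interval -0.11 to 0.59) and for S100A16 it was -0.19 (interval -0.60 to 0.22).

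**Figure D2:**
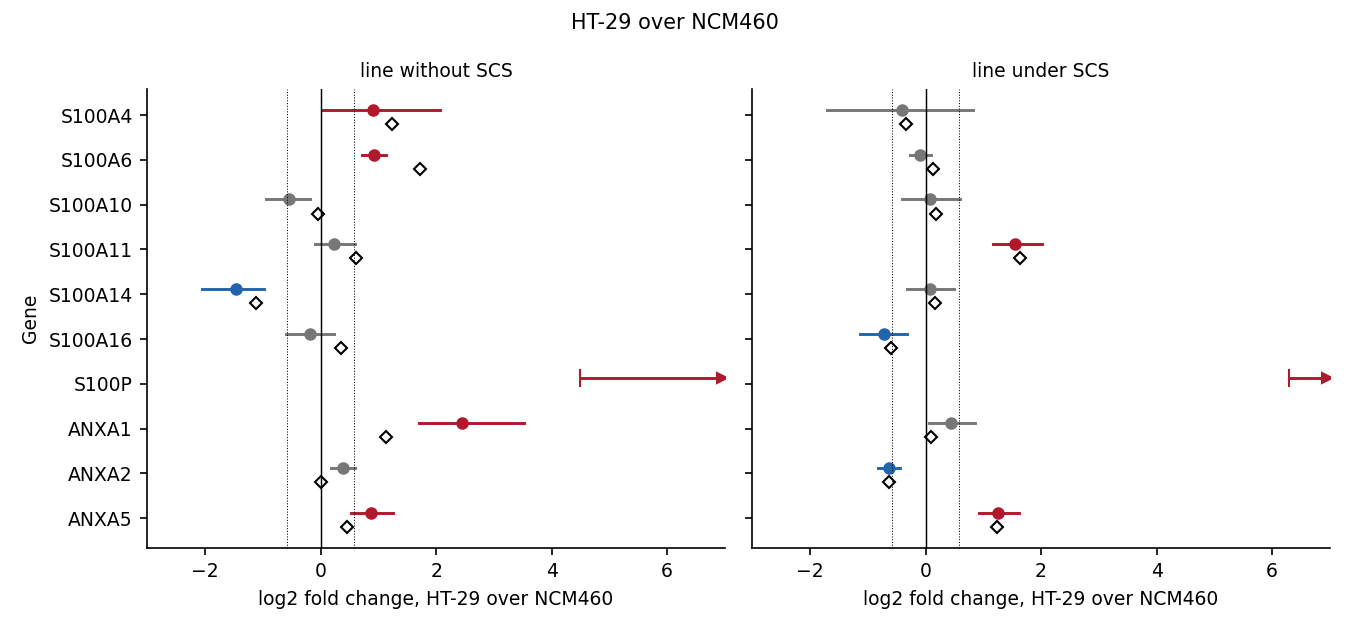
Log2 fold change of each member, HT-29 over NCM460, without SCS (left) and under SCS (right). Circles and bars are TMM-scaled values with 95% counting intervals, red where called higher, blue where called lower and grey where not called; diamonds are GC-subtracted values, dotted lines mark 1.5-fold, and the S100P bars start at the lower ends of their intervals, 4.49 and 6.29, with no upper end.

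Under SCS the lines differed in another set of members. HT-29 held more S100P, S100A11 and ANXA5 than NCM460, and less S100A16 and ANXA2, so that 3 of the 10 were called higher, beside 24.2% of 13062 loci, and 2 lower, beside 22.4%. Both shares lay near those of all loci. The GC-subtracted counts were 3, beside 23.1% of loci, and 2, beside 23.0%. The members' median log2 value was 0.08 and that of all loci 0.05. Each comparison between lines shares libraries with the comparisons of SCS that follow, so their values are not independent.

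S100A11, calgizzarin, which binds ANXA1 and is part of the cornified envelope, showed the largest difference after S100P. It had 371 fragments in HT-29 with SCS and 56 in NCM460 with SCS, against 288 and 93 in the controls. NCM460 with SCS was the low library at 51.8 CPM, and the other 3 lay between 119 and 155 CPM. Under SCS it was 2.94-fold higher in HT-29 (log2 fold change 1.56, interval 1.17 to 2.01, GC-subtracted 1.63).

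ANXA5 was 2.38-fold higher in HT-29 under SCS (log2 fold change 1.25, interval 0.93 to 1.61, GC-subtracted 1.23), so its call was kept when GC was subtracted here. ANXA2 was 1.55-fold lower in HT-29 under SCS (log2 fold change -0.63, interval -0.82 to -0.44). S100A16 was 1.65-fold lower (log2 fold change -0.72, interval -1.14 to -0.32). Of the genes called without SCS, S100A6 at -0.09, S100A14 at 0.08 and ANXA1 at 0.45 on the log2 scale were not called, and neither was S100A4 at -0.41, with an interval from -1.70 to 0.83.

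Over both treatments the additive fit called 8.58% of 9527 loci higher in HT-29 and 10.5% lower, and of the members 1 was higher, S100P, and none was lower. By edgeR's quasi-likelihood test, 1 member was also the count at an unadjusted p under 0.05. DESeq2 passed 0 members, and gave 1 at an unadjusted p under 0.05. After S100P, the smallest values were those of ANXA1 (log2 1.21 ± 0.62 SE, adjusted p = 0.163) and ANXA5 (0.89 ± 0.57 SE, adjusted p = 0.28). This fit has 1 residual degree of freedom, and its spread is the difference of the SCS change between lines, not a spread between replicates. S100P, with 0 fragments in both NCM460 libraries, has no such difference. Its SE and p therefore rest on the spread estimated over other loci.

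In HT-29 cells, SCS went with lower S100A4, S100A6, ANXA2, S100A10 and S100A16 and with higher S100P and S100A14, while ANXA1, ANXA5 and S100A11 stayed within 1.10-fold. Of the 10 members, 5 were called lower, beside 14.7% of 12178 loci, and 2 higher, beside 16.9%. The members' median log2 fold change was -0.34, against 0.07 over all loci. After subtraction of the GC trend 2 were called higher, beside 14.5% of loci, and 5 lower, beside 16.4%.

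The largest change was that of S100A4, from 57 to 16 fragments, or 27.8 to 6.66 CPM. It was 3.80-fold lower with SCS (log2 fold change -1.93, interval -2.96 to -1.24). S100A6 was 1.89-fold lower (log2 fold change -0.92, interval -1.06 to -0.79), on far more fragments. ANXA2 was 1.70-fold lower, from 797 to 548 fragments (log2 fold change -0.77, interval -0.93 to -0.61), and its partner S100A10 1.69-fold lower, from 164 to 113 (log2 fold change -0.76, interval -1.13 to -0.41). The partners thus moved by nearly the same amount. S100A16, a widely expressed S100 protein, was 1.64-fold lower, from 168 to 119 fragments (log2 fold change -0.72, interval -1.08 to -0.38).

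S100P was 2.49-fold higher with SCS in HT-29, from 220 to 645 fragments (log2 fold change 1.32, interval 1.10 to 1.55). S100A14 was 2.44-fold higher, from 58 to 169 fragments (log2 fold change 1.29, interval 0.88 to 1.77). With SCS, S100A14 stood at 70.4 CPM in HT-29 beside 66.6 CPM in NCM460. The log2 values of S100A11 (0.13, interval -0.09 to 0.36), ANXA1 (0.04, interval -0.25 to 0.33) and ANXA5 (0.05, interval -0.15 to 0.25) all had intervals that included no change. Of the colon epithelium markers, LGALS4 went from 138 to 464 fragments, KRT20 from 119 to 306 and CEACAM5, which shares a locus of 5 genes, from 10 to 95, while VIL1 went from 138 to 24 and KRT8 from 7024 to 3518. Of 9 marker loci tested, 4 were called higher and 4 lower with SCS in HT-29, beside 16.9% and 14.7% of all loci. Their part in the result was not tested.

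In NCM460 cells, SCS went with higher ANXA1 and lower S100A10 and S100A11. S100P had 0 fragments in both libraries and no fold is given, so 9 members were tested. Of these, 1 was called higher, beside 15.3% of 12666 loci, and 2 lower, beside 13.7%. With the GC trend subtracted 2 were called higher, beside 6.09% of loci, and 3 lower, beside 6.12%. The members' median log2 fold change was -0.27, and -0.08 when GC-subtracted, against 0.03 over all loci.

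ANXA1 was 3.97-fold higher with SCS, from 12 to 73 fragments (log2 fold change 1.99, interval 1.24 to 3.15). With the GC trend subtracted it was 0.94 on the log2 scale (interval 0.19 to 2.10), still called. S100A10 was 2.58-fold lower, from 92 to 48 fragments (log2 fold change -1.37, interval -1.95 to -0.89, GC-subtracted -0.90). S100A11 was 2.25-fold lower, from 93 to 56 fragments (log2 fold change -1.17, interval -1.71 to -0.71, GC-subtracted -0.80).

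The other members were not called. ANXA2 went from 232 to 382 fragments, a log2 value of 0.24 with an interval from 0.01 to 0.49 that was -0.08 when GC-subtracted. S100A6 had a log2 value of 0.09 that became 0.71 and was called when GC-subtracted, and ANXA5 one of -0.32 that became -0.67 and was called. S100A14 at -0.27, S100A16 at -0.18 and S100A4 at -0.51 had intervals that included no change, the last from -2.00 to 0.76 on 11 and 10 fragments.

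**Figure D3:**
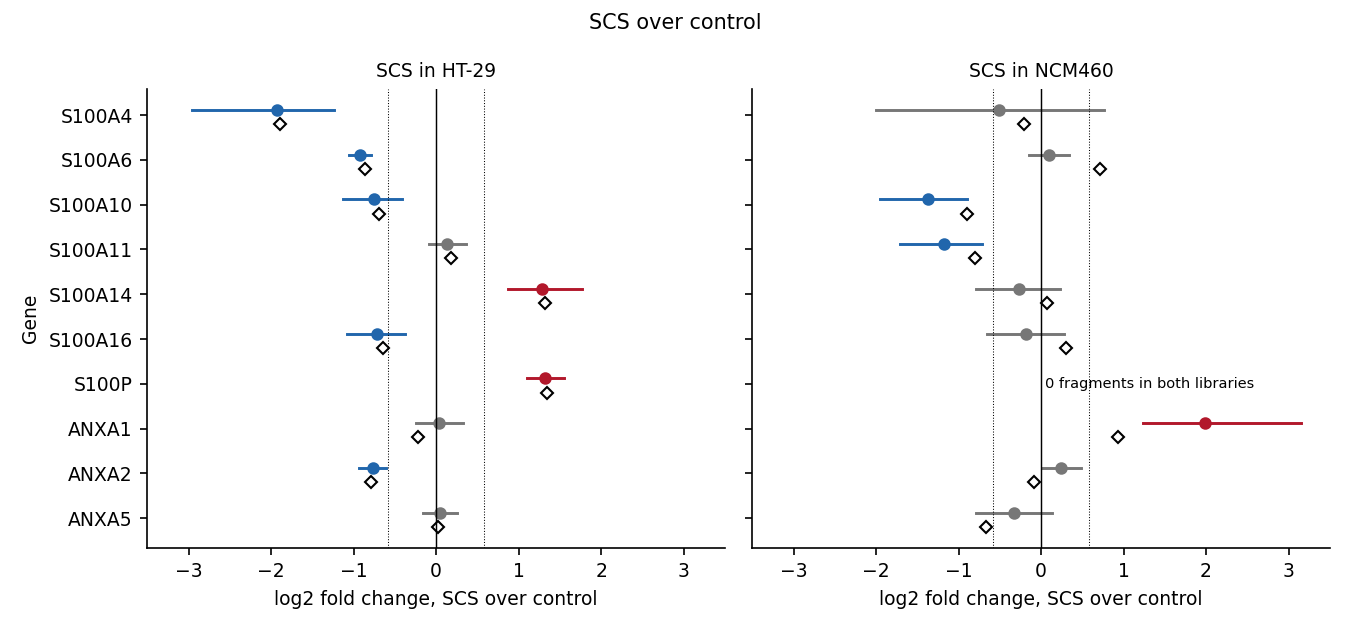
Log2 fold change of each member, SCS over control, in HT-29 (left) and NCM460 (right). Circles and bars are TMM-scaled values with 95% counting intervals, red where called higher, blue where called lower and grey where not called; diamonds are GC-subtracted values and dotted lines mark 1.5-fold. S100A10 is the gene called in the same direction on both sides.

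The difference of the SCS change between the lines was computed directly, as HT-29 minus NCM460 on the log2 scale, for the 9 members with fragments in all libraries. Over all 10854 loci tested in both lines this difference had a median of -0.11 and quartiles of -0.96 and 0.68. The counting intervals of 6 of the 9 members excluded 0, beside 30.3% of these loci, which were not matched to the members in depth. GC-subtracted, 8 of the 9 did, beside 22.4%. In S100A14 the difference was 1.59 (interval 0.91 to 2.28) and in S100A11 1.34 (0.79 to 1.90), so SCS over control was higher in HT-29 than in NCM460 for both. In ANXA1 it was -2.09 (-3.15 to -1.14), in ANXA2 -1.02 (-1.31 to -0.73) and in S100A6 -1.01 (-1.29 to -0.73). With the GC trend subtracted these 5 kept an interval that excluded 0, at 1.28, 1.01, -1.29, -0.71 and -1.57.

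S100A10 was lower with SCS in both lines. Its difference of 0.64 had an interval from 0.01 to 1.29, and the GC-subtracted value of 0.24 had an interval that included 0. For S100A4 (-1.43, interval -3.09 to 0.22), S100A16 (-0.54, interval -1.13 to 0.05) and ANXA5 (0.38, interval -0.13 to 0.88) the interval included 0, and each excluded it with the GC trend subtracted. These intervals compare 4 libraries and do not cover the spread between cultures.

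For a change with SCS fitted over both lines at once, no member passed by edgeR's quasi-likelihood test or by DESeq2. DESeq2 gave no adjusted p for S100A4, S100A14 and ANXA1, so it could not pass them. The edgeR fit passed 0.0210% of loci higher with SCS and 0.0420% lower. At an unadjusted p under 0.05, edgeR gave 1 member, S100A4 (log2 -1.47 ± 0.74 SE, adjusted p = 0.804 in edgeR's quasi-likelihood test), and DESeq2 gave 0. S100A10 had a log2 value of -1.14 ± 0.59 SE in the same fit.

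**Figure D4:**
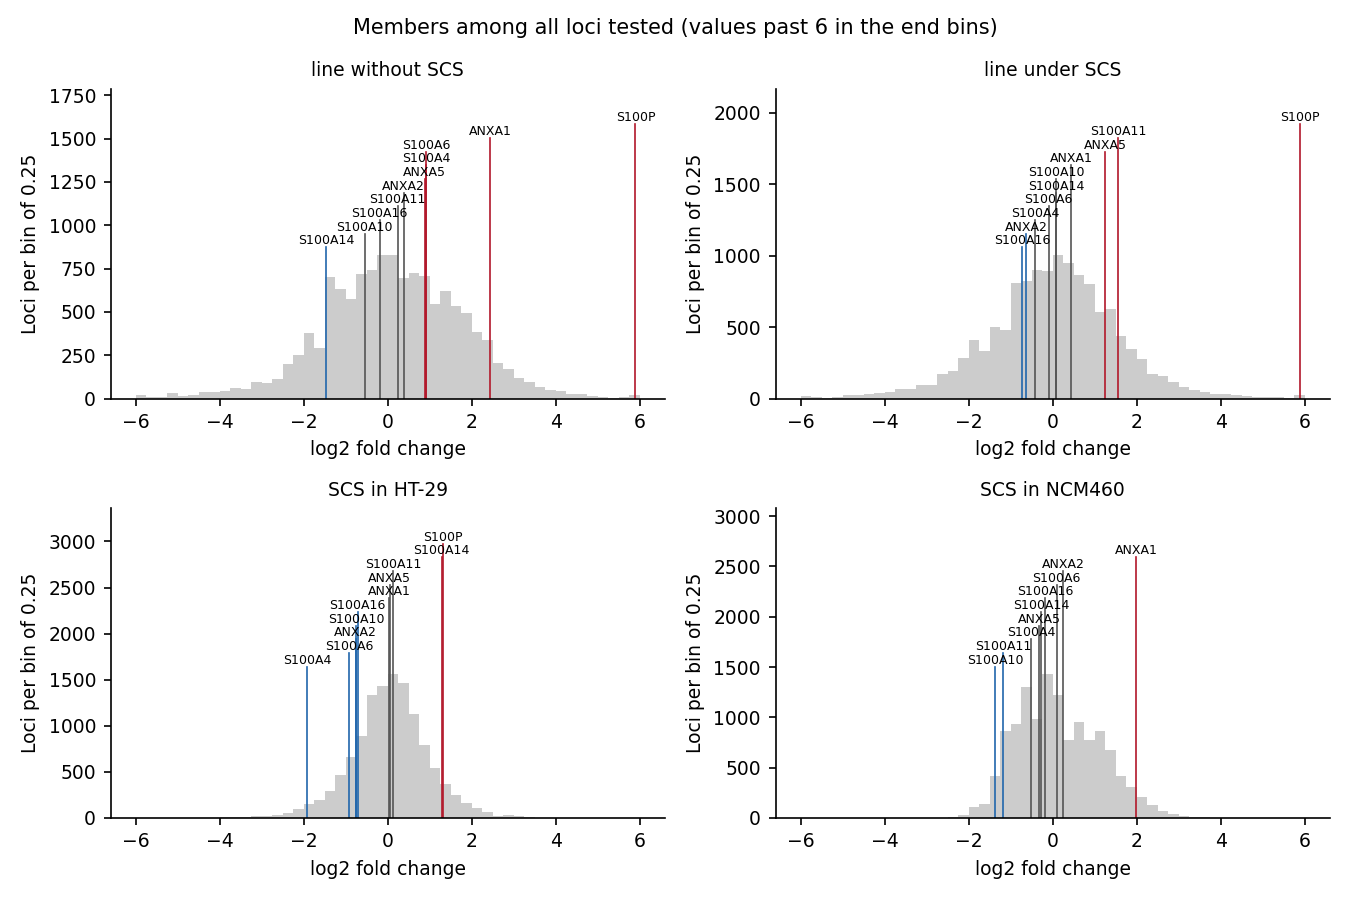
Members among all loci tested in each of the 4 comparisons, as histograms of log2 fold change in bins of 0.25. Vertical lines mark members, red where called higher, blue where called lower and dark grey where not called; S100P lies past the end of the axis in the comparisons of lines and is drawn in the last bin, and S100A4 with SCS in HT-29 (-1.93) and S100A10 (-1.37) and ANXA1 (1.99) with SCS in NCM460 lie outside the 5th to 95th percentile of all loci, which runs from -1.47 to 1.57 and from -1.30 to 1.84.

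Ratios of members within a library need no factor for library size, but they carry the GC trend where the genes of a pair differ in GC content. Changes of a ratio between libraries are therefore also given GC-subtracted, on the log2 scale with exact intervals. S100A10 stood to ANXA2 at 0.206 in the HT-29 control (interval 0.173 to 0.244) and 0.206 in HT-29 with SCS (0.167 to 0.253). In NCM460 it was 0.397 (0.308 to 0.507) without SCS and 0.126 (0.0911 to 0.170) under it. The intervals of the partners' ratio thus overlapped in HT-29 and lay apart in NCM460, lower with SCS. The log2 change in NCM460 was -1.66 (interval -2.25 to -1.08), and -0.86 (-1.45 to -0.28) when GC-subtracted. Between the lines without SCS it was -0.95 (-1.38 to -0.50), and -0.06 (-0.50 to 0.39) when GC-subtracted. Under SCS the log2 change between the lines was 0.71 (0.18 to 1.27), and 0.83 (0.29 to 1.39) when GC-subtracted.

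S100A11 stood to ANXA1 at 1.57 and 1.67 in HT-29 without and with SCS. In NCM460 it stood at 7.75 (interval 4.23 to 15.5) without SCS and at 0.767 (0.532 to 1.10) under it. Here too the HT-29 libraries overlapped and the NCM460 libraries did not. The log2 change in HT-29 was 0.09 (interval -0.28 to 0.46), but 0.40 (0.02 to 0.77) when GC-subtracted. The log2 change in NCM460 was -3.34 (interval -4.46 to -2.28), and -1.91 (-3.04 to -0.86) when GC-subtracted. Between the lines without SCS it was -2.31, and -0.62 (-1.67 to 0.30) when GC-subtracted. S100A6 stood to ANXA2 at 1.47, 1.32, 1.01 and 0.911, and the intervals overlapped within each line and lay apart between the lines at the same treatment. Within NCM460 the log2 change was -0.15 (interval -0.50 to 0.19), and 0.79 (0.44 to 1.13) when GC-subtracted.

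S100P stood to S100A6 at 0.188 (0.162 to 0.217) in the HT-29 control and at 0.888 (0.798 to 0.989) in HT-29 with SCS, while in NCM460 0 fragments allowed a ratio of up to 0.0158 and 0.0107. S100A16 stood to S100A14, neighbours on chromosome 1, at 2.90 (2.14 to 3.97) and 0.704 (0.552 to 0.896) in HT-29 and at 1.16 and 1.24 in NCM460. The ratio was thus lower with SCS in HT-29, and in NCM460 the intervals overlapped. Per length, as a ratio of deposited FPKM, it went from 3.66 to 0.836 in HT-29, where the intervals of the FPKM levels overlapped under SCS.

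ANXA1 stood to ANXA2 at 0.231, 0.405, 0.0517 and 0.191 in the 4 libraries, higher with SCS in both lines with intervals apart. The log2 change was 0.81 in HT-29 (GC-subtracted 0.57) and 1.89 in NCM460 (GC-subtracted 1.16). ANXA5 stood to ANXA2 at 0.469 and 0.827 in HT-29, with intervals apart, and at 0.332 and 0.223 in NCM460, where they overlapped, although the interval of the log2 change itself, -1.10 to -0.05, lay below 0. S100A4 stood to S100A6 at 0.0486 and 0.0220 in HT-29, with intervals apart that overlapped once libraries were thinned to the same depth, and at 0.0468 and 0.0287 in NCM460, where they overlapped. As ratios of deposited FPKM, every one of these pairs kept the direction it had where intervals lay apart.

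**Figure D5:**
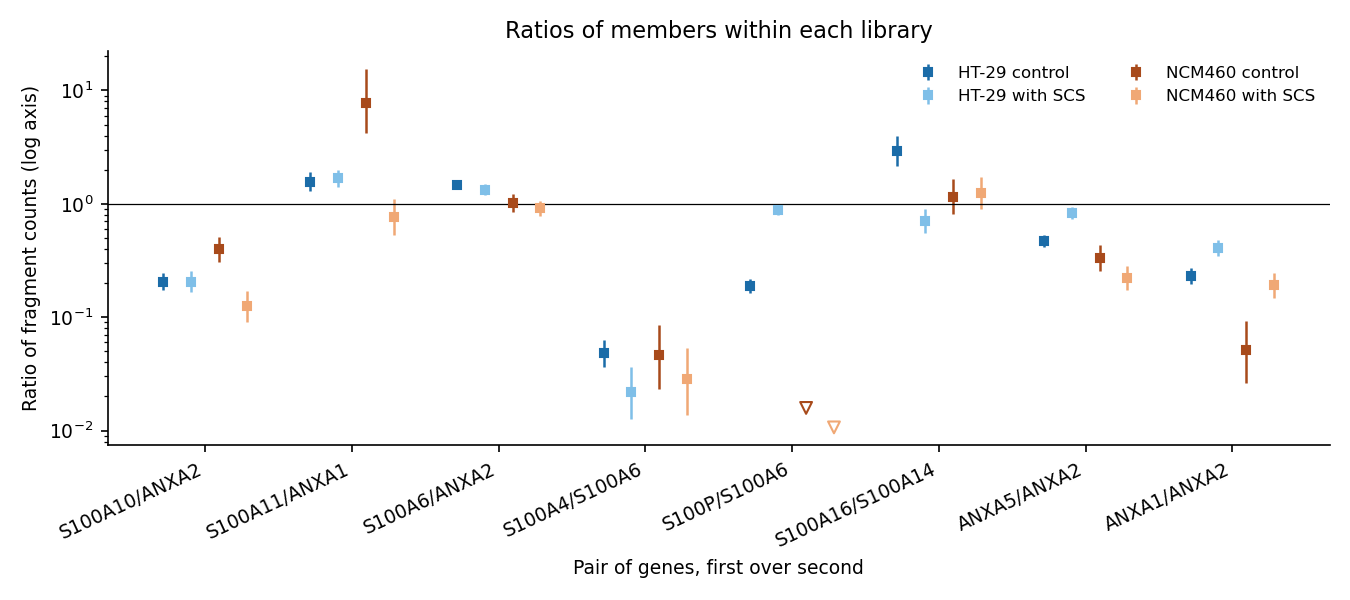
Ratio of fragment counts of pairs of members within each library, on a log axis. Squares are single libraries with 95% counting intervals and open triangles are upper limits; S100A10/ANXA2 overlaps in the HT-29 libraries and goes from 0.397 to 0.126 between the NCM460 libraries.

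Of 14 other S100 genes, 9 had no fragment in any library, among them S100A8, S100A9 and S100A12, which are made by neutrophils and other myeloid cells. Only S100A13 and S100A2 were tested. S100A2 had 26, 15, 1 and 2 fragments, and S100A13, which shares its reads with overlapping genes, 62, 57, 21 and 33. S100A2 was called higher in HT-29 without SCS (log2 2.39, interval 0.70 to 8.66) and lower with SCS in HT-29 (-0.93, interval -2.05 to -0.05), and S100A13 was called in no comparison.

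Of 10 other annexins, 7 were tested. Without SCS 5 were called higher in HT-29, beside 25.3% of all loci, and 1 lower, beside 23.1%, and with the GC trend subtracted 4 and 1, beside 18.5% and 19.0%. Under SCS they were again 5 and 1, beside 24.2% and 22.4%. ANXA11 was not called between the lines, with 276, 211, 109 and 87 fragments. The lower one was ANXA6, an annexin of endosomes and the cell membrane, with 2 and 4 fragments in the HT-29 libraries and 99 and 64 in the NCM460 libraries (edgeR's quasi-likelihood test over both treatments, log2 -6.10 ± 0.81 SE, adjusted p = 6.68e-12; DESeq2 adjusted p = 2.1e-08). At a mean of at least 10 CPM, the highest were ANXA3 without SCS (log2 3.16, interval 2.08 to 5.38) and ANXA4 under SCS (1.47, interval 0.84 to 2.29). Below that mean, ANXA10 without SCS (3.78) and ANXA9 and ANXA10 under SCS (2.72 and 1.71) had higher values. In the additive fit 4 of 7 were higher in HT-29 by edgeR's quasi-likelihood test, beside 8.58% of loci, and 1 lower, ANXA6, beside 10.5%. The 4 were ANXA3, ANXA4, ANXA9 and ANXA10, and DESeq2 passed none of these 4 (its adjusted p ran from 0.0697 to 0.275). ANXA9, with 1 and 1 fragments in NCM460, and ANXA10, with 0 and 3, entered the fit through HT-29 alone, and ANXA6 through NCM460 alone.

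With SCS in HT-29, 0 other annexins were called higher and 2 lower, beside 16.9% and 14.7% of all loci, with ANXA4 lowest (log2 -1.04, interval -1.38 to -0.74) and ANXA7 highest (0.46, interval 0.10 to 0.84, not called). In NCM460, 1 was called higher, ANXA3 (1.85, interval 0.70 to 4.21, from 4 to 26 fragments), and 2 lower, beside 15.3% and 13.7%, with ANXA6 lowest (-1.08, interval -1.58 to -0.63). The GC-subtracted counts of these annexins were 1 and 1, beside 6.09% and 6.12%.

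The list of 24 partner genes held bound targets, receptors, other calcium-binding proteins and DYSF, a membrane repair gene. It also held PLP2 and TAGLN2, taken as abundant short epithelial transcripts and not as bound partners. Of the 24 genes, 21 were tested. The receptors of annexin A1, FPR1 and FPR2, had no fragment in any library, and AGER, a receptor of S100 proteins, had at most 6. TLR4, the other receptor listed, had 18 and 8 fragments in HT-29 and was listed at 0 in both NCM460 libraries. It was called higher in HT-29 without SCS (log2 2.85, GC-subtracted 1.54 and not called). With SCS in HT-29 it was called lower (log2 -1.20, interval -2.81 to -0.13). Without SCS 9 were called higher in HT-29, beside 25.3% of all loci, and 5 lower, beside 23.1%, and with the GC trend subtracted 7 and 3, beside 18.5% and 19.0%. Under SCS they were 3 and 6, beside 24.2% and 22.4%. At a mean of at least 10 CPM, IQGAP1, a scaffold of the cortex bound by several S100 proteins, was highest in both (log2 2.41 and 1.03). EZR, ezrin, which ties actin to the membrane, was lowest in both (log2 -2.37 and -1.88). Over both treatments IQGAP1 had a log2 value of 1.54 ± 0.58 SE (adjusted p = 0.0453 by edgeR and 0.0393 by DESeq2) and EZR one of -2.31 ± 0.54 SE (adjusted p = 0.000265 and 1.34e-06).

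With SCS in HT-29, 0 partner genes were called higher, beside 16.9% of all loci, and 9 lower, beside 14.7%, with a median log2 value of -0.38 against 0.07 over all loci. At a mean of at least 10 CPM, TAGLN2 was lowest (log2 -1.59, interval -1.84 to -1.36) and PLP2 highest (0.45, interval 0.07 to 0.84, not called). Both were in the list as short epithelial transcripts, not as bound partners. In NCM460 5 were called higher and 5 lower, beside 15.3% and 13.7%, and with the GC trend subtracted 3 and 2, beside 6.09% and 6.12%. They ran from CAPN1, a calpain (log2 -1.20, GC-subtracted -0.58 and not called), to SUGT1, a target of S100A6 (1.56, GC-subtracted 0.41 and not called).

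Among 2189 other loci at a mean of 50 CPM or more, the profile over the 4 libraries most like that of S100P was LGALS4, galectin-4, at a distance of 0.58 between centred log2 profiles. LGALS4 had 67.4 and 193 CPM in HT-29 and was listed at 0 in NCM460, and GCNT3 at 1.00 and LIPG at 1.10 came after it. The nearest locus to S100A4 was TAGLN2 at 0.33, to S100A6 KREMEN1 at 0.21, to S100A14 JAG1 at 0.21, to S100A10 PKP3 at 0.14 and to S100A16 PSMB3 at 0.14. For ANXA1 it was GNG12 at 0.12, for ANXA2 BCL2L2 at 0.11, and for S100A11 and ANXA5 DVL3 and ZDHHC5, each at 0.07. S100P thus had the most distant nearest locus, and S100A11 and ANXA5 the closest. Profiles over 4 libraries share depth and base composition, and the likeness is a description.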

How the data were processed

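RNA-seq of HT-29 and NCM460 cells, untreated or after 24 h with 100 μg/mL SCS, gave 1 library for each of the 4 conditions. Total RNA was extracted with TRIzol, and 125-bp paired-end reads were made on an Illumina platform. The submitters' processing notes name bcl2fastq 2.17.1.14, cutadapt 1.9.1, Bowtie2, HTSeq 0.6.1 and hg19, with no role, and the paper names Cuffdiff. Coordinates of the table are nevertheless those of GRCh38: 94.4% of the identifiers found in GENCODE 29 had the same start and end. The deposited count columns are a signal, in which the authors had divided the fragments of a library by its own size factor. The authors also deposited FPKM values. Division by the worth of 1 fragment gave numbers within 0.1 of a whole for 99.9% to 100% of values, and these were rounded to fragments. The design had allowed for whole or scaled counts. The 26 rows without a name (0.0403% to 0.0942% of fragments) were left out, and rows with identical values in all columns, at most 10 rows apart, were merged into 18666 loci, of which 1804 hold several genes.

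Fragments were scaled by TMM factors of edgeR 4.0.16 (1.24, 1.50, 0.578 and 0.935). Pairwise log2 fold changes used CPM plus a prior count of 2, at a mean of at least 1 CPM, with 95% exact Clopper-Pearson intervals (scipy 1.17.1). A floor of 3 fragments, 1.25 to 3.85 CPM, stands for 0. Intervals and floors cover counting error only, and the HT-29 libraries, with more nuclear fragments, give the narrower ones. Shares of all loci beside a count were not matched to the members in depth, on which a call depends. At a mean of at least 5 CPM, 31.3% of loci were called higher in HT-29 without SCS and 26.1% lower. No count test could be fitted within a pair of single libraries. An additive fit of line and treatment with edgeR's quasi-likelihood test on the recovered fragments called 1814 loci for line and 6 for SCS at an adjusted p of 0.05, and DESeq2 1.42.0 called 922 and 34. An SE beside an edgeR value was computed as the log2 value over the square root of the test's F statistic. The SE beside a DESeq2 value is the one DESeq2 reports, so the SEs of the tools are different quantities. GC trends were fitted by lowess with a span of 0.3 (statsmodels 0.14.6), and GC content was found for 95.7% of loci. Scripts were tested on simulated data. Alternatives were other scalings, prior counts, filters, thinning, trends, FPKM, other tools and leaving out a library. The GC-subtracted change of ratios was added after the data were seen.

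The members and lists were chosen with earlier results of these data known. All 10 members were named. Of the other lists, counts were given, and by name the highest and lowest log2 fold change at a mean of at least 10 CPM in each comparison and any other S100, annexin or partner gene at 0 in both libraries of a line but at 10 CPM in the other line, of which there was none. The loci most like a member were the nearest by Euclidean distance of centred log2 CPM profiles, the nearest 3 for S100P and the nearest 1 for the others. S100A2, S100A8, S100A9, S100A12, S100A13, FPR1, FPR2, AGER, TLR4, ANXA9, ANXA10 and ANXA11 were named after their values were seen, as were the markers.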

Additional observations from a re-analysis of the deposited data

Results flagged for a closer look

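ANXA2 was drawn out because its interval with SCS over control lay below 0 in HT-29 (log2 fold change -0.77) and above 0 in NCM460 (0.24, interval 0.01 to 0.49). The lines differed by -1.02 on the log2 scale, HT-29 minus NCM460, with a counting interval from -1.31 to -0.73. With 1 library per condition, the difference was not tested against a spread between cultures. With the GC trend subtracted the NCM460 value was -0.08 and the difference -0.71, so the opposite signs rest on the scale used for the NCM460 control.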

How the results depend on the processing

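No paired analysis was possible because each condition has 1 library and the labels give no replicate numbers. Of the alternatives, scaling by total fragments only moved most counts, and it also moved the median of all loci to a log2 value of 1.13 between lines without SCS, 0.63 under SCS, 0.31 for SCS in HT-29 and 0.63 in NCM460. Under it 8 members were higher and 0 lower without SCS (beside 50.7% and 8.87% of loci), 7 higher and 0 lower under SCS (40.0% and 12.3%), 2 lower with SCS in HT-29 (8.81%), and 3 higher and 1 lower in NCM460 (32.6% and 2.05%). S100A16 without SCS (0.89), S100A6 under SCS (0.59) and ANXA2 under SCS (0.047) took the other sign under it, with a call gained or lost. S100A16 and S100A6 there also took the other sign, uncalled, with the GC or length trend subtracted. Without SCS, 2 members were lower under DESeq2 size factors, the scaling of the authors, thinning and FPKM. With the length trend subtracted 0 were lower under SCS, beside 23.7% of loci. In NCM460, 2 were higher with the GC trend subtracted, beside 6.09% of loci. By FPKM 4 were lower there, where the median of all loci was itself at a log2 value of -0.27. DESeq2 passed 0 members and 922 loci for line and 34 loci for SCS. Leaving out 1 library with the line term alone gave 649 to 2058 loci and 1 to 2 members, the second being ANXA1 without the NCM460 SCS library (adjusted p = 0.0272 by edgeR), where the lone library is assumed to vary like the others. Without the HT-29 SCS library 649 loci passed, without the HT-29 control 971 and without the NCM460 control 775. S100A6 scaled to its reference transcript length and to nuclear fragments, in place of FPKM, was 1640, 780, 688 and 832 in the order of the libraries. The other 111 recomputed summary values stayed within 1.5 times. Of 468 recomputed values of single members, 37 took the other sign, 34 of them with no call in either setting, 13 others lost a call and 20 gained one. Of 58 recomputed changes of ratios, 21 moved by more than 0.3 on the log2 scale. A prior count has no place in the exact odds ratio, so that alternative was not run for the difference between lines. S100A4, at 10 to 57 fragments, and S100P in NCM460 are limited by depth.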
